A study of Mus musculus with 5 samples.

Results

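The integrin and chemokine receptor genes of the mouse were examined for binding sites of EBF1 in pro-B cells, which are B-cell precursors. The set took every protein-coding gene of the RefSeq GRCm38 table whose symbol begins with Itga or Itgb, or with Ccr or Cxcr and a digit, and left out Cxcr4 and Cxcr5. It held 46 of 21521 protein-coding genes. They were 18 integrin alpha genes, 9 integrin beta genes, 4 other genes with an Itgb symbol, 11 CC chemokine receptor genes and 4 CXC chemokine receptor genes. A site belonged to a gene when its centre lay inside the gene, or when that gene was the nearest protein-coding gene within 100 kb, and 22 of the 7494 sites in the list did so.

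The sites came from chromatin immunoprecipitation and sequencing (ChIP-seq), which reads the DNA that is crosslinked to a protein. The cells were Ebf1-/- fetal liver cells into which wild-type EBF1 had been brought by transduction, so all EBF1 in them came from the transduced gene. Chromatin was fixed with 1% formaldehyde and precipitated with an antibody against EBF1. Of the 5 libraries in the series, 1 entered with a processed file, so there is no replicate and no comparison between libraries. The file gives each site a position, a width of 300 bp and 1 of 3 classes (CTD-ind, YmA-ind and YmA-dep), with no height, score or read count. YmA is an EBF1 form used elsewhere in the series. The step behind the classes is not described in the labels, and their names serve here only to tell the sites apart. The read depth is unknown, so the lack of a site at a gene does not show that EBF1 is absent there. No expression values were used here, so the pro-B identity of the cells was not checked against marker genes.

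Integrins are surface receptors made of 1 alpha and 1 beta chain that hold cells to matrix proteins and to ligands on other cells. Chemokine receptors are G-protein-coupled receptors that steer cells along gradients of small secreted proteins, and they can switch integrins to their adhesive state. B-cell precursors use members of both families to stay attached to stromal cells. Mature lymphocytes use them to move between bone marrow, lymphoid organs and mucosal tissue. EBF1 is a DNA-binding protein that B-cell precursors require to commit to their lineage.

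EBF1 sites were assigned to 13 of the 46 genes (28.3%, exact binomial 95% interval 16.0 to 43.5%), against 19.6% of all protein-coding genes. The interval, which covers counting error only, holds the value over all genes. Integrin alpha genes had a site at 6 of 18 (33.3%), and these were Itga6, Itga9, Itgam, Itgal, Itga2b and Itga4. Integrin beta genes had one at 2 of 9 (22.2%), Itgb7 and Itgb8. Of the 4 other Itgb symbols, Itgb1bp1 had a site. CC receptor genes had one at 3 of 11 (27.3%), Ccr7, Ccr8 and Ccr9, and CXC receptor genes at 1 of 4, Cxcr1. More than 1 site was found at 5 of the 46 genes (10.9%, against 6.78% of all protein-coding genes), and 3 sites at 4 of them (8.7%, against 2.99% with 3 or more). No interval was computed for these shares, and the differences were not tested.

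**Figure D1:**
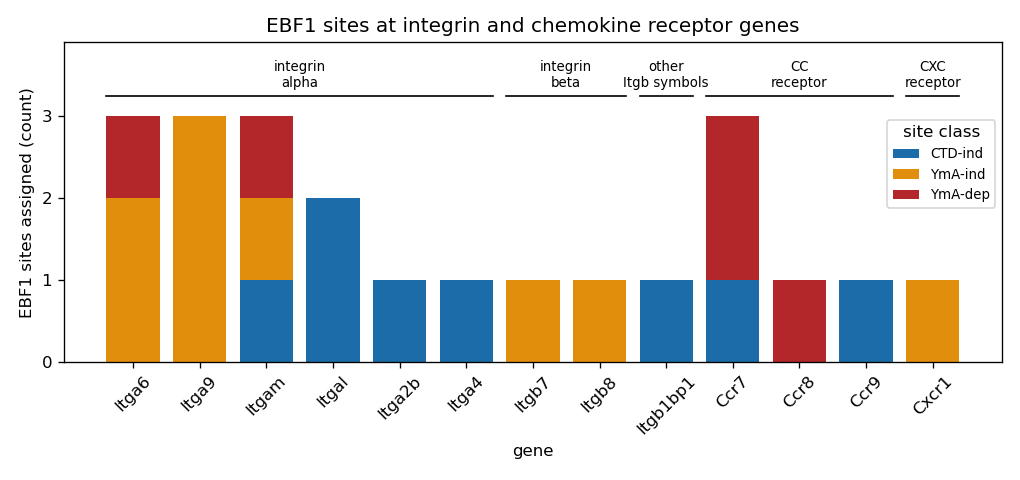
EBF1 sites assigned to each of the 13 genes that had any, as counts from 1 library, grouped by family and coloured by the authors' site class. Itga6, Itga9, Itgam and Ccr7 carried 3 sites each, Itgal 2 and the other genes 1.

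The families differed in length, which bears on such counts. The 15 chemokine receptor genes had a median length of 7.22 kb and the 27 integrin subunit genes 55.9 kb. Over all protein-coding genes, 13.6% of those under 25 kb and 28.5% of those of 25 kb or more had a site. Among the 46 genes the shares were 29.2% (7 of 24, exact 95% interval 12.6 to 51.1%) under 25 kb and 27.3% (6 of 22, 10.7 to 50.2%) at 25 kb or more. Each interval holds the share over all genes of that length class. At 25 kb or more, 13.6% of these genes had 3 or more sites, against 5.71% of all protein-coding genes. Under 25 kb the shares were 4.17% and 1.18%, and these differences were not tested. Integrin genes and Itgb1bp1 held 12 of their 16 sites inside the gene, while 0 of the 6 sites at chemokine receptor genes lay inside (exact 95% interval 0 to 45.9%). Over all sites assigned to a protein-coding gene, 59.6% lay inside it. For the 22 sites this share was 54.5% (32.2 to 75.6%). All the chemokine receptor genes were under 25 kb, and over all protein-coding genes under 25 kb 1014 of 2448 sites lay inside.

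Among the integrin alpha genes, Itga4 carried the site closest to a gene start. Itga4 encodes the chain that pairs with the Itgb1 or Itgb7 product and binds VCAM-1 on stromal cells. Its CTD-ind site at chr2:79255534-79255833 was centred inside the gene, 257 bp after the start. The nearest other site in the list lay 2.45 Mb away at Ttn, and 32 of the 7494 sites were farther from their neighbour. The promoter window of Itga4 from RefSeq (GRCm38.p6) runs past the start and ends 58 bases before this site. Its 250 bases before the start, at chr2:79255176-79255425 on the + strand, are printed 5′ to 3′. The letters CCCNNGGG, the core of the EBF motif, are in capitals. The printed bases stop just before the start and do not adjoin the site. Their CCCNNGGG begins 225 bp before the start, while the site is centred 257 bp after it.
Itga4: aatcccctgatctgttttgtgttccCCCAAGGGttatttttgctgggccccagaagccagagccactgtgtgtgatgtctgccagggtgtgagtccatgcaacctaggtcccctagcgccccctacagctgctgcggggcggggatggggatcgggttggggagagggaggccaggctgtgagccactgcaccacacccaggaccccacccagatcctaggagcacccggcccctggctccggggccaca

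Itga6, a laminin-binding chain found on early haematopoietic cells, had 3 sites. A YmA-ind site at chr2:71786438-71786737 was centred 299 bp outside the end of the gene with the lower coordinate. A YmA-dep site at chr2:71785346-71785645 lay 1.39 kb outside the same end, so that the centres of sites of different class were 1.09 kb apart. The third, YmA-ind, lay inside the gene at chr2:71852323-71852622, 5.96 kb from the other end.

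Itgal encodes the alpha chain of the leukocyte integrin LFA-1, which binds ICAM proteins on other cells. Both of its sites were CTD-ind, 1 inside the gene at chr7:127313930-127314229 and 1 at chr7:127289409-127289708, which was 6.58 kb outside it and within the long noncoding RNA gene Gm31897. Itgam encodes the alpha chain of the complement receptor Mac-1 of myeloid cells and had 1 site of each class. The YmA-dep site at chr7:128044223-128044522 lay 18.3 kb before the start of Itgam and closer, at 1.78 kb, to the pseudogene Gm9299. The CTD-ind site at chr7:128100777-128101076 and the YmA-ind site at chr7:128110309-128110608 lay inside, 38.3 and 47.8 kb after the start and 9.53 kb apart. Itgax and Itgad follow Itgam within a span of 143 kb and encode related leukocyte chains, but neither was assigned a site. The nearest site to Itgax was the YmA-ind site of Itgam, 19.1 kb away, and the nearest to Itgad was 63.5 kb away.

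Itga9 encodes a chain that binds tenascin and VCAM-1 as a partner of the Itgb1 product. It was the longest alpha gene of the set (294 kb) and had 3 sites, all YmA-ind and all inside, at 23.5%, 49.2% and 81.2% of its span. Neighbouring sites of Itga9 were at least 75.4 kb apart. The site at 81.2% of the span also lay within the long noncoding RNA gene Gm39454. Itga2b, which encodes the fibrinogen receptor chain of platelets, had a CTD-ind site at chr11:102461707-102462006, 8.03 kb after the start and near the middle of the gene.

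Both integrin beta genes with a site had 1 YmA-ind site inside the gene. At Itgb7, whose product joins the Itga4 chain in gut-homing lymphocytes or the Itgae chain in mucosal ones, the site at chr15:102225193-102225492 lay 6.59 kb after the start. At Itgb8, whose product joins the Itgav chain and activates latent TGF-beta, the site at chr12:119164178-119164477 lay 73.9 kb after the start and 1.52 kb from the far end of the gene. The site at Itgb8 was 743 kb from the nearest other site.

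The beta chains shared by most of the alpha chains above were assigned no site. Itgb1, the partner of the Itga4, Itga6 and Itga9 chains, had its nearest site 166 kb away. Itgb2, the partner of the Itgal, Itgam, Itgax and Itgad chains, had 4 sites within 100 kb, and each was nearer to another gene. The closest of these were YmA-dep sites assigned to Pttg1ip, 18.4 and 22.1 kb outside Itgb2. Itgb3, the partner of the Itga2b chain, had its nearest site 31.0 kb away.

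Itgb1bp1 encodes ICAP-1, a protein that binds the tail of the beta chain from Itgb1 and restrains its activation. Its CTD-ind site at chr12:21285748-21286047 was centred 387 bp after the start. The start of Cpsf3, which encodes an endonuclease of pre-mRNA 3′ processing, lies 13 bp away on the opposite strand, and the site was centred 400 bp before that start, so the site could be counted with either gene. The 250 bases before the Itgb1bp1 start, at chr12:21286285-21286534 on the - strand, are shown because both starts lie beside this site. They hold no CCCNNGGG. These bases do not overlap the site, and the promoter window they come from ends 187 bases from it. Whether the site itself holds the motif is therefore not shown.
Itgb1bp1: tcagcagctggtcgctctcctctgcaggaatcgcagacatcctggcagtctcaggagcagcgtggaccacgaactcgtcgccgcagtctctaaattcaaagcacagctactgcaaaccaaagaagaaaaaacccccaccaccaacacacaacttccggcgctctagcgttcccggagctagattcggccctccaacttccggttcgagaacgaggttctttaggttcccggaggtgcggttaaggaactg

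**Figure D2:**
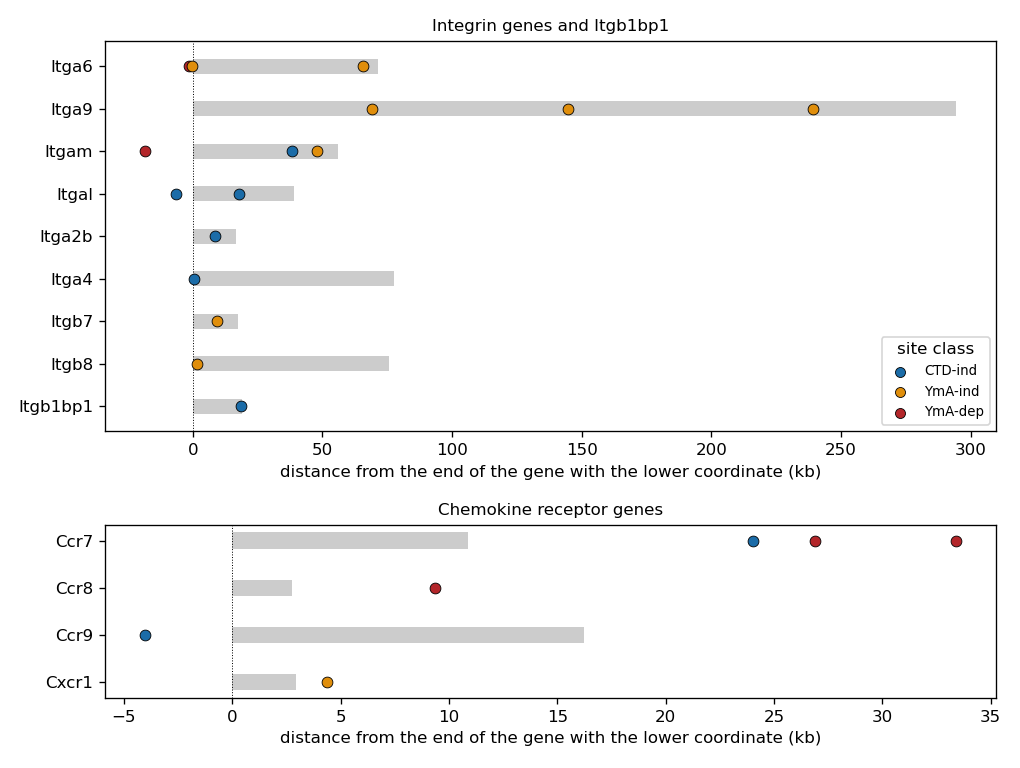
Position of each of the 22 sites along the 13 genes, in kb from the end of the gene with the lower coordinate. Grey bars are the gene spans and points are site centres, coloured by class. The 6 sites at chemokine receptor genes lie outside the bars, and 12 of the 16 at integrin genes and Itgb1bp1 lie on them.

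At the chemokine receptor genes, Ccr7 carried the most sites. Ccr7 encodes the receptor for Ccl19 and Ccl21, which brings lymphocytes and dendritic cells into lymph nodes. Its 3 sites lay in a row beyond the end of the gene with the higher coordinate. The CTD-ind site at chr11:99168089-99168388 was 13.2 kb outside, the YmA-dep site at chr11:99170957-99171256 was 16.0 kb outside, and the YmA-dep site at chr11:99177438-99177737 was 22.5 kb outside. The long noncoding RNA gene Gm32249 lies closer to them than Ccr7. The CTD-ind site was centred 74 bp before its start, the nearer YmA-dep site lay inside it and the farther one 1.86 kb beyond it. The next protein-coding gene, Smarce1, was 31.5 kb or more from each site.

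The promoter window of Gm32249 covers 273 of the 300 bases of the CTD-ind site, the largest stretch of any of the 22 sites for which letters were at hand. They are printed for chr11:99168089-99168361 on the + strand, and CCCNNGGG does not occur in them.
Gm32249: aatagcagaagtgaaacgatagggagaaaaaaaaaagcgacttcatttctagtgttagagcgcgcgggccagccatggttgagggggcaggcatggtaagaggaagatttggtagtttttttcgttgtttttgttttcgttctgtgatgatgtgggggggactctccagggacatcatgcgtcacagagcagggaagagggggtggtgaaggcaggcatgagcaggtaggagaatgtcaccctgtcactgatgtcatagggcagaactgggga

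Ccr8 encodes a receptor of regulatory T cells and some helper T cells. A YmA-dep site at chr9:120101342-120101641 lay 6.58 kb outside Ccr8, and the neighbouring gene Slc25a38 was 8.89 kb from the same site. Ccr9 encodes the receptor for Ccl25, used in homing to thymus and small intestine. A CTD-ind site at chr9:123763059-123763358 was centred 4003 bp before the start of Ccr9. The long noncoding RNA gene Gm17021 was closer to that site, at 1.5 kb. Cxcr1 encodes a receptor for neutrophil-attracting chemokines, and a YmA-ind site at chr1:74196001-74196300 lay 1.44 kb outside the end of the gene at its start. Cxcr2, its neighbour with a related receptor, was 34.9 kb from that site.

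The site before Ccr9 was the last of the list on chromosome 9. Cxcr6, Ccr1, Ccr1l1, Ccr3 and Ccr2 follow it, and the 342 kb from Ccr9 to Ccr2 held 0 sites. Cxcr6, which binds Cxcl16, was 43.3 kb from the site before Ccr9. The inflammatory receptor genes Ccr1, Ccr3 and Ccr2 and the related gene Ccr1l1 were 199 to 339 kb from it. The placing of reads between close copies among these genes was not checked.

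Of the 33 genes with no assigned site, 16 had a site within 100 kb that was nearer to another protein-coding gene. The closest was at Ccr10, which encodes a receptor of skin- and mucosa-homing lymphocytes, with a CTD-ind site 2.12 kb away that was assigned to Plekhh3. Itga5, the fibronectin receptor chain, had a CTD-ind site 10.9 kb away, assigned to Zfp385a. The others within 100 kb were Itgax, Itgb2, Itgb3, Cxcr2, Itgb4, Cxcr6, Itga7, Itgb5, Itga3, Itgad, Itgae, Itga11, Itga10 and Ccr6, the Ccl20 receptor gene, at 18.4 to 80.4 kb. In all, 52 sites lay within 100 kb of one of the 46 genes, and 30 of them were assigned to 26 other genes.

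The remaining 17 genes had no site within 100 kb. Itga1 and Itga2, which encode collagen-binding chains and lie side by side, were 1160 and 1040 kb from the nearest site, and Itgbl1 was 1020 kb from one. Cxcr3, a receptor of effector T cells, was at 463 kb, Itga8 at 444 kb and Ccr4 at 277 kb. Itgav, Itgb1, Itgb6, Itgb2l, Itgb3bp and Itgb1bp2 were 113 to 181 kb from a site. Ccr1, Ccr1l1, Ccr3 and Ccr2 were also among them. The median distance to the nearest site was 53.2 kb over the 46 genes and 82.8 kb over all protein-coding genes, with the distance set to 0 for a gene that held a site. The share of genes with no site within 100 kb was 37.0% (17 of 46), against 46.6% over all protein-coding genes.

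**Figure D3:**
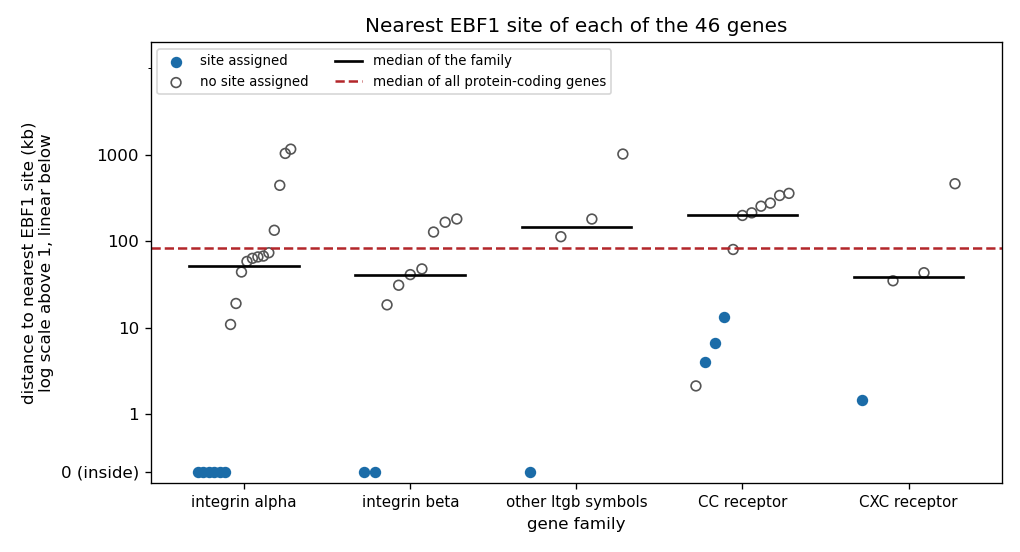
Distance from each of the 46 genes to its nearest EBF1 site, in kb on a log scale above 1 kb, by family, with family medians as black lines and the median of all protein-coding genes (82.8 kb) as a dashed line. CC receptor genes had a median of 199 kb and integrin alpha genes 51.3 kb. The CC median is the value of Ccr1, which shares its nearest site, the one before Ccr9, with Ccr1l1, Ccr3 and Ccr2. The open circle at 2.12 kb is Ccr10, whose nearest site was assigned to another gene.

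By class, the 22 sites were 9 YmA-ind (40.9%, exact binomial 95% interval 20.7 to 63.6%), 8 CTD-ind (36.4%, 17.2 to 59.3%) and 5 YmA-dep (22.7%, 7.82 to 45.4%). Over the whole list the shares were 54.1%, 34% and 11.9%, each within the interval of the 22 sites. Counted by gene, a CTD-ind site was found at 7 of 46 genes (15.2%, against 9.32% of all protein-coding genes). A YmA-ind site was found at 6 (13%, against 12.2%) and a YmA-dep site at 4 (8.7%, against 3.26%), namely Itga6, Itgam, Ccr7 and Ccr8. No interval was computed for these shares by gene, and the differences were not tested. The 6 sites at chemokine receptor genes were 3 YmA-dep, 2 CTD-ind and 1 YmA-ind, and the 16 at integrin genes and Itgb1bp1 were 2, 6 and 8. The YmA-dep count rested on the assignment, since it was 2 when all annotated genes, noncoding genes and pseudogenes included, competed for a site. In that setting Ccr7 and Ccr9 lost all their sites.

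**Figure D4:**
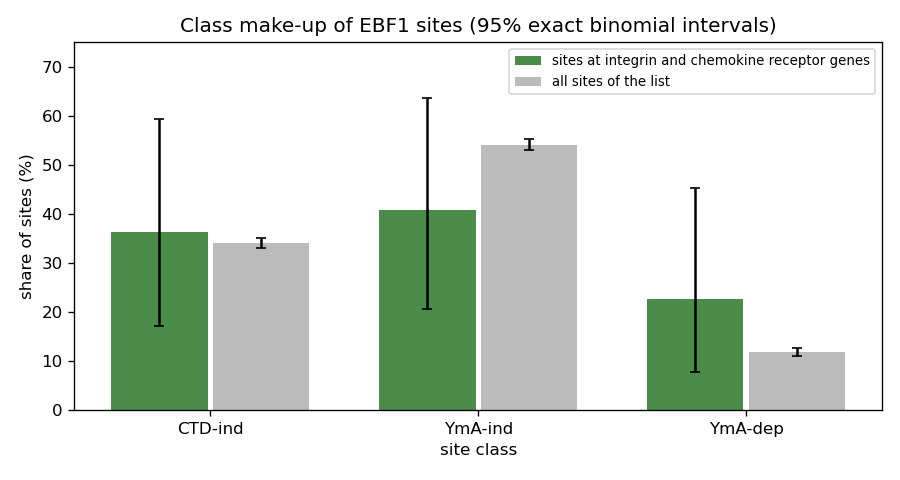
Share of each site class, in percent, among the 22 sites at integrin and chemokine receptor genes and among all 7494 sites, with exact binomial 95% intervals that cover counting error only. The YmA-dep share was 22.7% at these genes and 11.9% over the list, and the interval of the first holds the second.

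The distance of the 22 sites from gene ends was set beside that of the whole list. Within 1 kb of an end of the assigned gene lay 3 sites, those at Itga4, Itga6 and Itgb1bp1. With ends of all annotated genes, the Ccr7 site beside Gm32249 joined them, which gave 4 of 22 (18.2%, 5.19 to 40.3%), against 21.5% of all sites. Within 2.5 kb of such an end lay 12 of 22 (54.5%, 32.2 to 75.6%), against 34.8% of all sites, so the share was below that of the list at the shorter distance and above it at the longer one, and the interval held the value of the list at both. The median distance to the nearest other site was 70.6 kb, against 23.3 kb over the list. Over 100 kb from any other site were 5 of the 22 (22.7%, against 20.4% over the list). Under 10 kb from another site were 7 of the 22 (31.8%, against 33.2% over the list), and these were at Ccr7, Itga6 and Itgam.

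Promoter windows, from 250 bases before to 50 after a start, were available from RefSeq for 34 of the 46 genes (37 windows). The full palindromic EBF motif, in its strict form of the core below with T before it and A after it, was in 0 of them and in 0.904% of all 32851 windows. Its core CCCNNGGG, which lies within it and reads the same on both strands, was in 4 of 37 (10.8%, against 13.7% of all windows). CCCNNGGGA, searched on both strands and overlapping the core, was in 2 (5.41%, against 6.56%). The core windows belonged to Itga4, Itgb7 and Itga2b, which had a site elsewhere in the gene, and to Cxcr2, which had none. The matches are shown with 10 bases on each side, in capitals, on the strand of the gene. They lie at chr2:79255191-79255218 (Itga4), chr15:102231932-102231959 (Itgb7), chr11:102469870-102469897 (Itga2b) and chr1:74153921-74153948 (Cxcr2), and none overlaps a site of the list.
Itga4: tttgtgttccCCCAAGGGttatttttgc
Itgb7: agtccccccaCCCCAGGGtgtgtcactt
Itga2b: cagcatccatCCCCGGGGtgggccctcc
Cxcr2: taggacacctCCCTTGGGggtgggacat

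Other short motifs of lymphoid factors were also counted on both strands. TGTGGT, bound by RUNX factors, was in 9 of 37 windows (24.3%, against 16.8% of all). AGGAAG, a core of ETS factors, was in 17 (45.9%, against 35.4%), and CANNTG, the E-box, in 33 (89.2%, against 72.3%). A match describes letters in the window and is not a binding site.

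Genes that work with these receptors were counted from lists. The lists were chosen with earlier results of these data known, so their shares are descriptions and not evidence of enrichment. Of 15 genes of chemokine receptor signalling, 10 had a site (66.7%, exact binomial 95% interval 38.4 to 88.2%), and of 30 genes of integrin activation and adhesion 16 did (53.3%, 34.3 to 71.7%), against the 19.6% of all protein-coding genes. Both shares were above those of the 27 integrin subunit genes (29.6%) and the 15 chemokine receptor genes (26.7%), and these differences were not tested. Inside the gene lay 11 of the 21 sites of the signalling list and 45 of the 50 of the integrin activation list. The integrin activation list had a median gene length of 84.0 kb and the signalling list 21.3 kb. The share over all protein-coding genes of 25 kb or more was 28.5%, and under 25 kb it was 13.6%. Integrin ligands had a site at 1 of 9 genes, Icam2, chemokines at 2 of 12, and atypical and other chemokine receptors at 2 of 8.

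**Figure D5:**
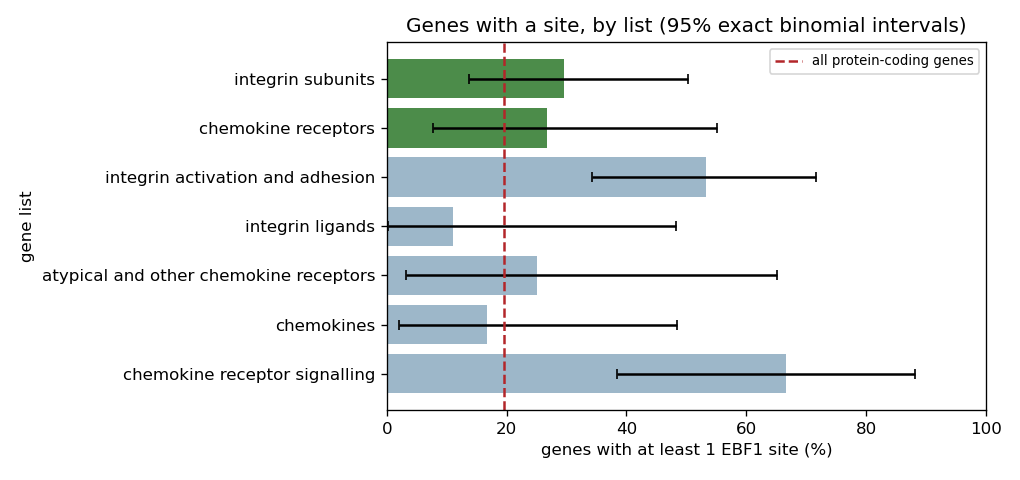
Genes with at least 1 EBF1 site, in percent of each list, for the 27 integrin subunit and 15 chemokine receptor genes (green) and the related lists (blue), with exact binomial 95% intervals that cover counting error only. The dashed line is the 19.6% of all protein-coding genes, and the highest bar is chemokine receptor signalling at 66.7%. All lists were chosen with earlier results of these data known.

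The integrin activation list was mixed within its gene families. Of the genes of the small GTPase Rap1, which switches integrins on, Rap1a had 1 site and Rap1b 0. Of its exchange factor genes, Rasgrp2 had 3 sites and Rapgef1 0, and the effector genes Rassf5 and Apbb1ip had 4 and 2. Of the talin and kindlin genes, whose products bind beta-chain tails, Tln1 and Fermt3 had 1 site each, and Tln2, Fermt1 and Fermt2 had 0. The focal adhesion genes Vcl and Pxn had 4 and 3 sites and Zyx 0. Parvb had 4, and Parva and Parvg 0, while Tns3 had 8 and Tns1 0. The adaptor genes Skap1 and Fyb had 1 site each and Skap2 had 0. The kinase gene Ptk2b had 2 sites, and Ptk2 and Ilk had 0. Lims1 had 1 site, Kank1 had 2, and Lims2 and Sharpin had 0. Cyth1, whose product cytohesin acts on the beta chain from Itgb2, had 12. In the receptor signalling list, Grk2, a kinase that desensitises receptors, had 5 sites, and the Rac pathway genes Elmo1, Vav1, Rac2 and Dock2 had 4, 3, 3 and 1. Rgs1, Rgs2, Rgs13, Grk6 and Arrb1 had 1 each. The sites of Rgs1, Rgs2 and Rgs13 lay outside the gene, by 83235, 80277 and 7860 bp. The G-protein genes Gnai2, Gnai3 and Gna13 had 0, as did Rgs16 and Arrb2. Among the ligands, Ccl25, which encodes the ligand of the Ccr9 product, had a YmA-ind site inside the gene, while the site of Cxcl12 lay 89.1 kb away.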

How the data were processed

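Reads were handled by the authors with Bowtie2, SAMtools and deepTools on mouse build GRCm38 (mm10), as the submitters' processing notes list. The deposited file holds positions in bp and a class per site, with no other measurement. Which program called the peaks, at what threshold, and how their width was set are points not stated in the labels. Gene spans came from a RefSeq GRCm38.p6 table without strand, in which 345 genes of unplaced or alternate scaffolds were left out and 49209 kept. Starts and strands came from RefSeq promoter windows where listed.

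Each site was represented by its centre and given to a protein-coding gene, the shortest of those that held it or else the nearest within 100 kb, which gave 7082 of 7494 sites a gene. Assignment was checked on simulated sites planted in or near genes that stood apart from other protein-coding genes. The choice between close or overlapping genes was not covered by that check. Counts and shares are descriptions without a test, and sites and genes are not replicates. Intervals are exact (Clopper-Pearson) 95% binomial intervals. Members were named, except 1 that is not reported here by name. The members, lists and length classes were chosen with earlier results of these data known. Python 3.11.15, pandas 2.3.3 and scipy 1.17.1 were used.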

Additional observations from a re-analysis of the deposited data

How the results depend on the processing

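Genes with a site numbered 13 with no distance limit and with limits of 50 and 20 kb, the same 13 genes each time. With every gene within 10 kb taking a site it was also 13, with Ccr10 in place of Ccr7, and by nearest gene start 13, with Itgax in place of Ccr8. For genes without a listed start, both ends stood in for it. When all annotated genes competed, chosen after the data were seen, 11 genes and 15 of the 22 sites were left. CTD-ind sites then numbered 5 in place of 8 and YmA-dep sites 2 in place of 5, since noncoding genes and pseudogenes took them. YmA-dep sites numbered 2 with the 10 kb rule and 3 with 1 site per run of neighbours, by construction of these rules. The share of sites near a gene end was 54.5% when near meant 2.5 kb (34.8% over the list), which turned it from below to above the list. Of 91 site counts of the 13 genes under alternatives, 7 moved by over 1.5 times, at 5 genes. Itgam went from 3 sites to 1 by nearest start, Ccr8 from 1 to 0 there, Itgal from 2 to 1 and Ccr9 from 1 to 0 when all genes competed, and Ccr7 from 3 to 1 with 1 site per run and to 0 with the 10 kb rule and when all genes competed. The counts of the 33 genes without a site say little here, as most are 0 throughout.

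No paired analysis was possible because 1 library had a file. The share of sites with the EBF motif and a stricter peak threshold were not run, for want of a genome sequence and of a score. Read depth is unknown, which limits every count of genes without a site.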
